A study of Caenorhabditis elegans with 51 samples.

Results

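The transcripts of xrn-2, paxt-1 and xrn-1 were followed in 35 RNA sequencing libraries of whole Caenorhabditis elegans larvae at the L4 stage, in which the nuclease XRN2 was impaired by mutation or by RNAi. These 3 genes were found by their WormBase gene IDs (WBGene00006964, WBGene00011034 and WBGene00012730) among the 44200 genes of each count table. The temperature-sensitive strain HW1660, carrying xrn-2(xe31), and the wild type N2 (WT) were grown for 59 h at 15 °C and then shifted to 26 °C. Each hour between 0 and 10 h after the shift has 1 library of either strain. For the 6 h and 10 h RNA of both strains a second, deeper sequencing run was made, with no further animals. Strain HW2216 carries the catalytic-dead transgene xrn-2(D234/236A)::gfp in addition to the xe31 allele, and was profiled at 6 h and 10 h after the same shift beside its own N2 libraries. Neither the promoter nor the copy number of that transgene is stated in the labels. RNAi against xrn-2 and mock RNAi with an empty vector were applied to N2 animals kept at 20 °C between the L1 and mid-L4 stages. That gave 1 polyA-selected library per treatment, and in a second experiment 2 xrn-2 RNAi libraries and 1 mock library depleted of ribosomal RNA (rRNA). The study set out to learn how transcription ends when XRN2 is impaired.

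XRN2 is a nuclear exoribonuclease that digests RNA in the 5' to 3' direction. It is known for degrading the RNA that is still being made after an mRNA has been cut at its polyadenylation site, a step linked to the release of RNA polymerase II, and in C. elegans also for the turnover of mature microRNAs. PAXT-1 is a protein that binds XRN2 in C. elegans and keeps it stable. XRN-1 is the related enzyme of the cytoplasm, which degrades mRNAs from the 5' end once their cap has been removed.

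Gene counts per library ran between 41238235 and 57832479 in the time course. The resequenced libraries held 239213652 to 253142688, those of the catalytic-dead experiment 49628394 to 74356542, the rRNA-depleted ones 21695913 to 23817072 and the polyA RNAi pair 36463650 and 44605077. Levels are counts per 1000000 counts (CPM) of a library total scaled with TMM factors within each experiment, except in the polyA RNAi pair, where library totals were used. Such levels are not corrected for transcript length, so no level of one gene was set against that of another. The markers found for germline, intestine, muscle and sperm were all above 0 in both time-course strains, with counts summed over the 11 hours. Single markers were not checked for this in the other groups. The listed markers trp-3 (sperm) and opt-2 (intestine) were not found. In whole animals, fewer cells of a type and less RNA per cell cannot be told apart. Nothing in the labels says that the libraries of a group came from separate cultures, and hours stood in for replicates in the time course, so a p-value covers the spread between these libraries and nothing wider.

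The xrn-2 transcript was higher in xe31 than in WT at all 11 hours. At 0, 1 and 2 h it stood at 308, 189 and 136 CPM in xe31, against 192, 130 and 108 CPM in WT. At 3, 4 and 5 h it was at 156, 216 and 206 CPM in xe31, against 111, 121 and 114 CPM in WT. Both strains were highest at 0 h and fell steeply over the next 2 hours, after which WT stayed almost level while xe31 climbed again. Between 6 and 10 h the hourly values were 210, 201, 241, 254 and 222 CPM in xe31, against 113, 108, 112, 115 and 119 CPM in WT. The late groups did not overlap, nor did the groups at 3 to 5 h, whereas those at 0 to 2 h did.

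The late level of xrn-2 averaged 225.8 ± 21.9 CPM in xe31 and 113.4 ± 4.07 CPM in WT (SD, n = 5 hours each), a log2 change of 0.99 ± 0.07 (SE; edgeR quasi-likelihood test, Benjamini-Hochberg (BH) adjusted p = 1.53e-06). The difference was present in 5 of 5 hours, between 1.86-fold at 7 h and 2.21-fold at 9 h. At 3 to 5 h the log2 change was 0.73 ± 0.08 (edgeR, BH-adjusted p = 0.000921), and at 0 to 2 h it was 0.52 ± 0.08 (edgeR, BH-adjusted p = 0.00193). The strain difference of xrn-2 was larger late than early by 0.47 ± 0.11 on the log2 scale (edgeR, BH-adjusted p = 0.0111), and xrn-2 was the 1 of the 3 genes for which this contrast passed, beside 5.71% of all 17123 genes tested. The labels do not say how the xe31 allele acts, so the transcript level was not taken as a check of the strain label.

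The early difference of xrn-2 depended on how hours were matched: when xe31 was set against WT 1 hour earlier, the early log2 change was 0.02 (edgeR, BH-adjusted p = 0.935), and against WT 1 hour later it was 0.78 (edgeR, BH-adjusted p = 0.0157). The match to earlier WT left out xe31 at 0 h, where the xrn-2 difference was 1.61-fold. In the early hours 7 of 8 sperm markers were higher in xe31, where 6.67% of all genes were, with a summed level of 41.0 to 119 CPM in xe31 and 29.7 to 67.0 CPM in WT. In the same contrast 3 of 7 muscle markers and 1 of 6 intestine markers were lower in xe31, where 1.02% of all genes were. The part of these markers in the early values was not tested. Without the 2 h libraries the late-minus-early contrast of xrn-2 had an adjusted p of 0.0657 (edgeR, BH).

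The level of paxt-1 was close to equal in both strains and moved with time. At 0, 1 and 2 h it was 49.4, 42.8 and 42.9 CPM in xe31, against 47.0, 37.9 and 40.0 CPM in WT. At 3, 4 and 5 h it was 42.2, 47.3 and 55.9 CPM in xe31, against 44.0, 43.8 and 50.1 CPM in WT. The 3 h pair was the one in which WT was higher. Between 6 and 10 h the values were 56.9, 60.6, 64.3, 69.9 and 74.9 CPM in xe31, against 50.2, 55.4, 59.9, 67.0 and 66.8 CPM in WT. The 2 strains overlapped in each window of hours, and the hourly ratios lay between 0.958 and 1.13.

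The late means of paxt-1 were 65.3 ± 7.20 CPM in xe31 and 59.9 ± 7.30 CPM in WT (SD, n = 5 hours each), a log2 change of 0.13 ± 0.04 that passed the test (edgeR, BH-adjusted p = 0.0182). It did not pass at 3 to 5 h (0.07 ± 0.05, edgeR, BH-adjusted p = 0.381) or at 0 to 2 h (0.12 ± 0.05, edgeR, BH-adjusted p = 0.227). The late change of paxt-1 was 0.21 on the log2 scale against WT 1 hour earlier (edgeR, BH-adjusted p = 0.0305) and 0.018 against WT 1 hour later (edgeR, BH-adjusted p = 0.862). The match to later WT left out xe31 at 10 h. Without hour as a block the late change was 0.13 (edgeR, BH-adjusted p = 0.622).

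**Figure D1:**
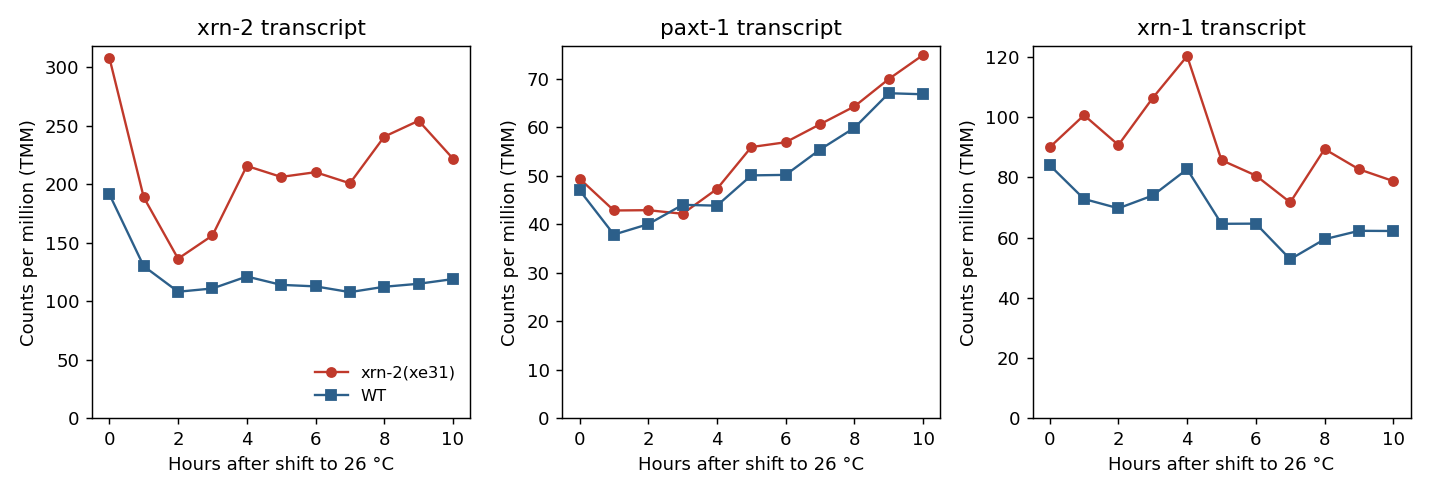
Level of each transcript (y axis, CPM scaled with TMM factors) by hour after the shift to 26 °C (x axis) in xe31 (red circles) and WT (blue squares), 1 library per point. The xrn-2 curve of xe31 lies above that of WT at each hour, with 136 CPM against 108 CPM at 2 h and 254 CPM against 115 CPM at 9 h. At 10 h the xrn-2 values are 222 CPM in xe31 and 119 CPM in WT. The paxt-1 curves climb together, and the xrn-1 curve of xe31 lies above that of WT at each hour.

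The cytoplasmic nuclease gene xrn-1 was higher in xe31 at 11 of 11 hours, between 1.07-fold at 0 h and 1.503-fold at 8 h. At 0, 1 and 2 h it stood at 90.0, 100.7 and 90.8 CPM in xe31, against 84.1, 72.8 and 69.8 CPM in WT. At 3, 4 and 5 h it stood at 106, 120 and 85.7 CPM in xe31, against 74.0, 82.7 and 64.6 CPM in WT. Both strains had a local peak at 4 h, and within each window of hours the groups did not overlap. Between 6 and 10 h the values were 80.6, 71.7, 89.4, 82.7 and 78.8 CPM in xe31, against 64.7, 52.8, 59.5, 62.3 and 62.2 CPM in WT.

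The late means of xrn-1 were 80.7 ± 6.41 CPM in xe31 and 60.3 ± 4.56 CPM in WT (SD, n = 5 hours each), with a log2 change of 0.42 ± 0.05 (edgeR, BH-adjusted p = 0.000128). The change was 0.49 ± 0.07 at 3 to 5 h (edgeR, BH-adjusted p = 0.00169) and 0.32 ± 0.07 at 0 to 2 h (edgeR, BH-adjusted p = 0.0147). The late-minus-early contrast was 0.10 ± 0.09 (edgeR, BH-adjusted p = 0.452). The early call was lost without the 1 h libraries (edgeR, BH-adjusted p = 0.189) and without the 2 h libraries (edgeR, BH-adjusted p = 0.151).

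By these tests 3 of the 3 genes were called higher late, where 17.3% of all genes were, 2 of 3 at 3 to 5 h, where 10.1% of all genes were, and 2 of 3 at 0 to 2 h, where 6.67% of all genes were. Ordered by mean level, xrn-2 went late xe31, early xe31, middle xe31, early WT, middle WT and late WT, and the hourly ranges of each neighbouring pair in that order overlapped. For paxt-1 the order was late xe31, late WT, middle xe31, middle WT, early xe31 and early WT, again with overlapping neighbours. For xrn-1 it was middle xe31, early xe31, late xe31, early WT, middle WT and late WT, and early and late xe31 were the 1 neighbouring pair whose ranges did not overlap.

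Over the hours in WT alone, paxt-1 rose by 0.075 ± 0.012 on the log2 scale per hour (SE; edgeR, BH-adjusted p = 0.000407, 11 libraries), between 37.9 CPM at 1 h and 67.0 CPM at 9 h. In the same WT libraries 10 of 14 germline markers rose, and the part of germline growth in the paxt-1 slope was not tested. The xrn-1 slope was negative, at -0.046 ± 0.013 per hour (edgeR, BH-adjusted p = 0.0134), and did not pass with unscaled library totals (-0.017 per hour, edgeR, BH-adjusted p = 0.276). The xrn-2 slope was -0.042 ± 0.018 per hour (edgeR, BH-adjusted p = 0.0748), passed without the 2 h library (-0.050 per hour, edgeR, BH-adjusted p = 0.0415) and was -0.0076 per hour without the 0 h library (edgeR, BH-adjusted p = 0.547). Of all genes 27.6% rose and 28.9% fell with the hours in WT, so 1 call in each direction among these 3 genes is near what all genes showed. Neighbouring hours are not independent samples.

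The ratio between 2 of these transcripts in the same library does not depend on library scaling. The ratio of xrn-2 to paxt-1 was higher in xe31 than in WT at 11 of 11 hours, by 0.68 ± 0.24 on the log2 scale (SD over hours; exact sign-flip permutation test over 11 hours, two-sided, p = 0.000977, the smallest it can give, BH-adjusted over 3 pairs p = 0.00146). The hourly differences of that ratio lay between 0.23 and 1.08. The ratio of xrn-1 to paxt-1 was also higher at 11 of 11 hours, by 0.30 ± 0.16 (exact sign-flip permutation test, p = 0.000977, adjusted p = 0.00146). The ratio of xrn-2 to xrn-1 was higher at 9 of 11 hours, by 0.38 ± 0.27 (exact sign-flip permutation test, p = 0.00488, adjusted p = 0.00488). Over the 5 late hours alone each ratio was higher in 5 of 5 hours, and the smallest p that 5 pairs allow is 0.0625. The test treats hours as independent, which neighbouring hours are not, so its p does not measure a spread between cultures.

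For each listed gene the files hold counts in a window called downstream, whose length and distance from the gene end are not stated in the labels or headers. The downstream window of xrn-2 filled in xe31 over the course. At 0, 1 and 2 h it held 1, 2 and 3 counts in xe31, against 0, 0 and 0 in WT. At 3, 4 and 5 h it held 4, 6 and 9 counts in xe31, against 1, 1 and 1 in WT. Between 6 and 10 h it held 28, 46, 54, 46 and 58 counts in xe31, against 2, 2, 2, 4 and 2 in WT. The late groups lay far apart and did not overlap.

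Because the gene itself was also higher in xe31, downstream counts are given per 1000 gene counts of the same library. Over 6 to 10 h xrn-2 had 3.49 downstream counts per 1000 gene counts in xe31 (232 over 66449; exact Poisson 95% interval 3.06 to 3.97) and 0.379 in WT (12 over 31622; 0.196 to 0.663). The fitted change of this ratio was 3.11 ± 0.38 on the log2 scale (edgeR over both kinds of counts, BH-adjusted p = 1.15e-07, higher in 5 of 5 hours). Downstream ratios rose across the transcriptome in these libraries: 48.1% of the 11263 genes tested were called higher, with a median log2 change of 1.07, and xrn-2 was 1 of them. Over 3 to 5 h xrn-2 had 0.734 per 1000 in xe31 and 0.213 in WT, with 19 and 3 window counts behind those values, and their ratio of 3.45 had an exact interval of 1.01 to 18.2. Intervals here and below cover counting error only.

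**Figure D2:**
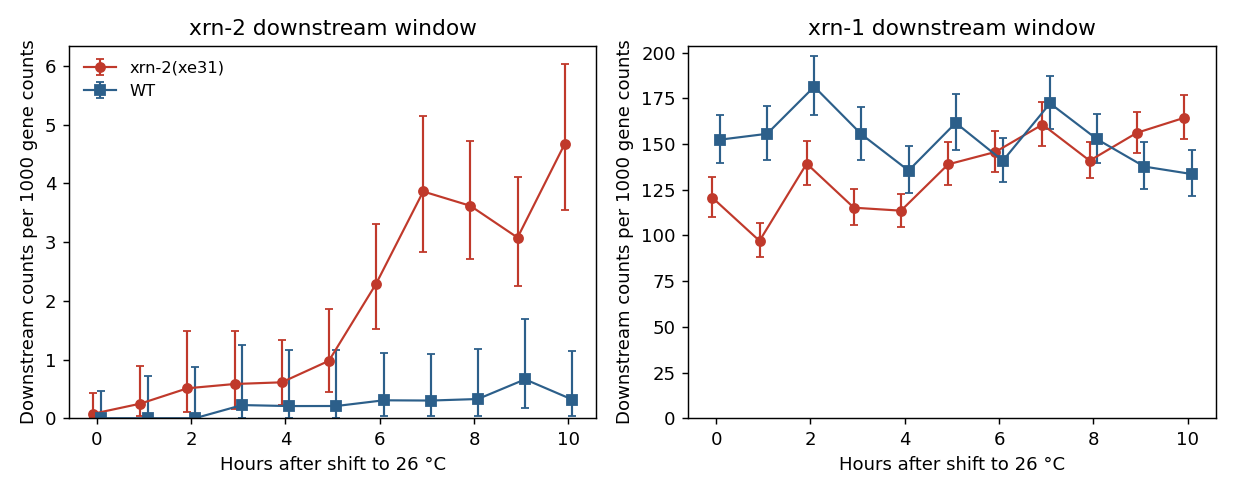
Downstream counts per 1000 gene counts (y axis) by hour after the shift (x axis) for xrn-2 and xrn-1 in xe31 (red circles) and WT (blue squares), with exact Poisson 95% intervals for counting error as bars. For xrn-2 the xe31 values climb to 4.67 at 10 h against 0.318 in WT, and for xrn-1 the xe31 values lie below WT up to 5 h and mix with them later. The panels have different y axes.

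The downstream window of xrn-1 behaved otherwise. It was well filled in both strains, and late it held 153 counts per 1000 gene counts in xe31 (141 to 164 over the hours) and 147 in WT (134 to 172). That difference did not pass (log2 change 0.06 ± 0.17, edgeR, BH-adjusted p = 0.785). Over 0 to 2 h the hourly values were 121, 97.0 and 139 per 1000 in xe31, against 152, 156 and 181 per 1000 in WT, so the groups did not overlap and xe31 was lower. The window counts themselves were near equal in those hours, 1425 in xe31 and 1471 in WT, while gene counts were 12047 in xe31 and 9078 in WT. The early ratio was not tested. The tables of windows do not list paxt-1, and its gene end was not analysed here.

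The files also hold a second window, called upstream, for which no position relative to the gene is stated in the labels or headers. For xrn-2 it held 51 counts in late xe31 and 31 in late WT, which is 0.768 per 1000 gene counts in xe31 (0.402 to 1.00 over the hours) and 0.980 in WT (0.611 to 1.43). The log2 change was -0.37 ± 0.44 (edgeR, BH-adjusted p = 0.547), where 40% of 8465 genes tested were called higher and 2.17% lower. Over 0 to 2 h the upstream ratio of xrn-2 was 0.627 per 1000 in xe31 and 1.91 in WT (17 and 33 window counts), with hourly ranges that did not overlap, and this too was not tested. For xrn-1 the upstream window held no count in any of the 22 time-course libraries. The exact Poisson upper limit was 0.0741 per 1000 gene counts in xe31 and 0.106 in WT.

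Deeper sequencing of the 6 h and 10 h RNA gave near-equal ratios for xrn-2, with less counting error. The gene stood at 204 and 225 CPM in xe31, against 112 and 119 CPM in WT, a ratio of 1.82 at 6 h and 1.90 at 10 h. The downstream window held 167 and 296 counts in xe31, against 8 and 10 in WT. In the ratio to gene counts this was 10.9-fold higher in xe31 at 6 h (exact 95% interval 5.39 to 25.6) and 15.3-fold higher at 10 h (8.18 to 32.1). The upstream window of xrn-2 held 41 and 71 counts in xe31, against 38 and 49 in WT. Its ratio to gene counts in xe31 was 0.562 of that in WT at 6 h (exact interval 0.353 to 0.898). At 10 h it was 0.747 of that in WT (0.512 to 1.10), an interval that spans 1. For paxt-1 the levels were 62.4 and 78.3 CPM in xe31, against 54.6 and 72.2 CPM in WT.

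The 2 sequencing runs differed more for xrn-1. The resequenced levels were 94.5 and 89.9 CPM in xe31, against 84.5 and 76.6 CPM in WT, which is 1.12-fold and 1.17-fold, where the first run gave 1.25-fold and 1.27-fold at the same hours. The downstream window of xrn-1 had 190 and 215 counts per 1000 gene counts in xe31, against 167 and 163 in WT, a ratio of 1.14 (exact interval 1.09 to 1.19) at 6 h and 1.31 (1.26 to 1.38) at 10 h. In the first run the same hours gave 146 and 164 per 1000 in xe31, against 141 and 134 in WT. The runs were scaled separately, and the resequenced values were not tested because they add no new samples.

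In the catalytic-dead strain the xrn-2 gene had its highest CPM of all experiments, each scaled on its own, but reads of the transgene and of the endogenous gene cannot be told apart in them. It stood at 504 and 428 CPM at 6 h and 10 h in the mutant, against 110 and 124 CPM in its WT, with no overlap. The log2 change was 1.99 ± 0.29 (edgeR, BH-adjusted p = 0.0537), just short of the threshold in a fit with 1 residual degree of freedom. It passed with DESeq2 (log2 1.89, BH-adjusted p = 0.00109), with the spread shared with the time course (2.03, edgeR, BH-adjusted p = 3.27e-07), without the filter on low counts (1.95, edgeR, BH-adjusted p = 0.0331) and with unscaled library totals (2.31, edgeR, BH-adjusted p = 0.0456). It did not pass with upper-quartile factors (2.27, edgeR, BH-adjusted p = 0.0665). Of all genes, 2100 were called higher with DESeq2, 6693 with the shared spread and 812 without the filter, against 120 as reported.

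The partner gene paxt-1 had 57.4 and 56.7 CPM in the catalytic-dead strain, against 65.3 and 99.8 CPM in its WT. The mutant libraries lay below both WT libraries, which differed widely from each other. The log2 change was -0.50 ± 0.33 (edgeR, BH-adjusted p = 0.367). It was -0.22 from the 6 h libraries alone and -0.86 from the 10 h libraries alone, values with no test. The summed level of 14 germline markers was 1888 to 2272 CPM in the mutant and 4036 to 6163 CPM in WT. That of 8 sperm markers was 86.0 to 204 CPM in the mutant and 544 to 847 CPM in WT. In time-course WT, scaled separately, the sperm sum was 29.7 to 67.0 CPM early and 598 to 784 CPM late. The part of these marker differences in the xrn-2, paxt-1 and xrn-1 values of the catalytic-dead experiment was not tested.

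The xrn-1 gene had 128 and 135 CPM in the catalytic-dead strain, against 62.5 and 102 CPM in its WT, without overlap. Its log2 change of 0.72 ± 0.32 did not pass (edgeR, BH-adjusted p = 0.216), and it was 1.00 from the 6 h libraries alone and 0.36 from the 10 h libraries alone, again with no test. With the spread shared with the time course both genes were called, paxt-1 at -0.46 (edgeR, BH-adjusted p = 0.00499) and xrn-1 at 0.76 (edgeR, BH-adjusted p = 0.000412). That setting also called 6693 of all genes higher and 5503 lower, so such a call was common. With 1 residual degree of freedom 0.697% of the 17212 genes tested were called higher and 0.465% lower, and the 3 genes here were not among them (at an unadjusted p under 0.05, 3124 genes were higher and 1958 lower). Unscaled library totals moved the median log2 change of all genes by 0.32 in this comparison, and gave -0.18 for paxt-1 and 1.04 for xrn-1.

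Both windows of xrn-2 were filled in the catalytic-dead strain. Downstream counts were 342 and 345 in the mutant, against 2 and 0 in WT. At 6 h the ratio to gene counts was 11.3 per 1000 in the mutant and 0.260 in WT, a 43.5-fold difference with an exact interval of 12.0 to 361. At 10 h it was at least 24.9-fold higher in the mutant, with the WT library set at a floor of 3 counts. Upstream counts were 180 and 105 in the mutant, against 5 and 1 in WT, which is 9.16-fold (3.85 to 28.6) at 6 h and 22.8-fold (4.00 to 907) at 10 h in the ratio. Whether reads of the transgene fell in these windows was not tested.

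The xrn-1 downstream window had 245 and 198 counts per 1000 gene counts in the catalytic-dead strain, against 153 and 96.8 in its WT. The ratio was 1.60 (exact interval 1.47 to 1.75) at 6 h and 2.04 (1.83 to 2.28) at 10 h, with no overlap between the groups. The spread between the 2 WT libraries was itself larger than the counting error.

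The effects of the 2 mutants were compared directly, catalytic-dead minus resequenced xe31, after each was taken over WT within its experiment. The difference of the log2 changes was 1.11 ± 0.25 for xrn-2 (edgeR, BH-adjusted p = 0.145), -0.64 ± 0.31 for paxt-1 (edgeR, BH-adjusted p = 0.313) and 0.54 ± 0.31 for xrn-1 (edgeR, BH-adjusted p = 0.367), so for 3 of 3 genes a difference between the 2 mutants was not shown. Of all genes 0.00528% were called higher and 0.0581% lower in this contrast, which had 2 residual degrees of freedom. DESeq2 called 1317 genes higher and 1341 lower.

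**Figure D3:**
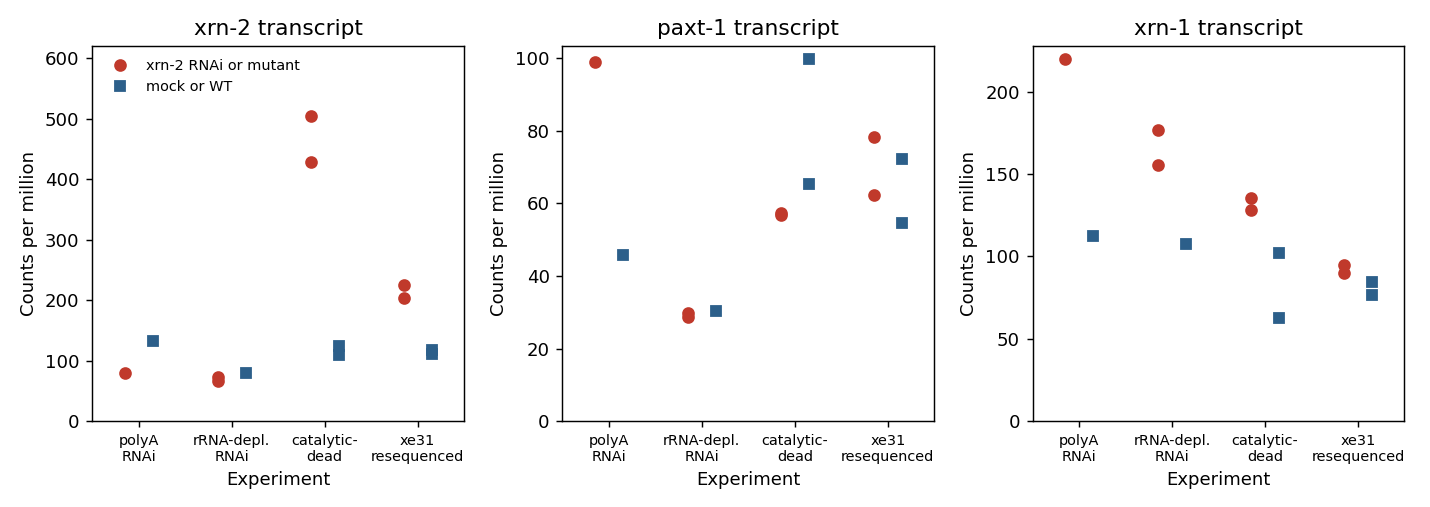
Level of each transcript (y axis, CPM) in the other 4 experiments (x axis), with xrn-2 RNAi or mutant libraries as red circles left of mock or WT libraries as blue squares, 1 point per library. The catalytic-dead libraries stand highest for xrn-2 at 504 and 428 CPM, and the RNAi libraries are highest for xrn-1, with 220 CPM in the polyA experiment.

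In the polyA pair xrn-2 was lower, and paxt-1 and xrn-1 higher, in the xrn-2 RNAi library than in the mock library, relative to library totals. The xrn-2 gene had 3548 counts or 79.5 CPM after xrn-2 RNAi and 4821 counts or 132 CPM after mock RNAi, a log2 ratio of -0.73 (exact binomial 95% interval -0.80 to -0.67). The paxt-1 gene had 98.9 CPM after xrn-2 RNAi and 45.7 CPM after mock RNAi, a log2 ratio of 1.11 (1.03 to 1.19). The xrn-1 gene had 220 CPM after xrn-2 RNAi and 113 CPM after mock RNAi, a log2 ratio of 0.97 (0.91 to 1.02).

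There was 1 library per treatment in that pair, so these ratios have no replicate check and no p. The ratio of paxt-1 was past 2-fold, as it was for 25.4% of 13970 genes with at least 100 counts. The median log2 ratio of all those genes was 0.37 on library totals, and with TMM factors the ratios became -1.12 for xrn-2, 0.73 for paxt-1 and 0.58 for xrn-1. The summed level of 14 germline markers was 1784 CPM after xrn-2 RNAi and 3269 CPM after mock RNAi, and that of the intestine markers was 1327 CPM after xrn-2 RNAi and 3623 CPM after mock RNAi. Their part in the ratios was not tested.

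Without polyA selection the xrn-2 level was much the same in both treatments. It stood at 72.7 and 65.9 CPM in the 2 libraries with the label xrn-2 RNAi and at 80.0 CPM in the mock library. The log2 change was -0.21 ± 0.30 (edgeR, BH-adjusted p = 0.915), and it was 0.10 with unscaled library totals, where the median of all genes moved by 0.31. The transcript therefore gives no check of the RNAi label in this experiment, and directions drawn from these libraries rest on their labels.

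In the same libraries paxt-1 had 28.8 and 29.7 CPM after xrn-2 RNAi and 30.3 CPM after mock RNAi (log2 -0.05 ± 0.31, edgeR, BH-adjusted p = 0.992). The xrn-1 gene had 155 and 177 CPM after xrn-2 RNAi and 108 CPM after mock RNAi, higher in 2 of 2 libraries, but the log2 change of 0.63 ± 0.30 did not pass (edgeR, BH-adjusted p = 0.466). The edgeR fit, with 1 residual degree of freedom, called 0% of 15917 genes in either direction, although 1487 genes were higher and 847 lower at an unadjusted p under 0.05. DESeq2 called 743 genes higher and 361 lower, none of these 3 genes among them. The summed level of the intestine markers was 587 to 837 CPM after xrn-2 RNAi and 2084 CPM after mock RNAi, and that of the muscle markers was 6869 to 8419 CPM after xrn-2 RNAi and 9371 CPM after mock RNAi. Their part in these values was not tested.

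**Figure D4:**
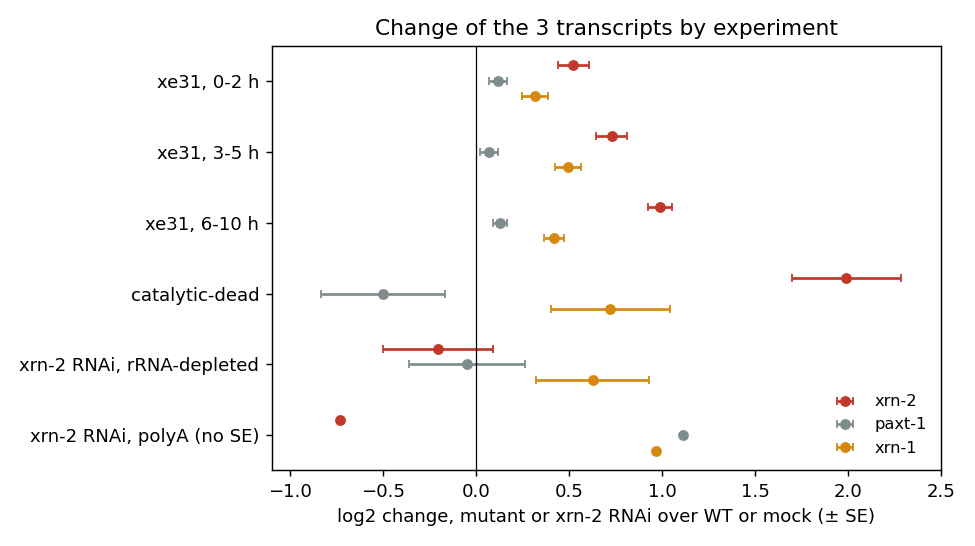
Log2 change of each transcript (x axis; mutant over WT or xrn-2 RNAi over mock) by comparison (y axis), with the standard error of the edgeR fit as bars and none for the polyA pair. The xrn-1 points lie right of 0 in each of the 6 comparisons, between 0.32 and 0.97, while xrn-2 and paxt-1 lie on both sides.

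The downstream window of xrn-2 was fuller in both RNAi experiments. It held 77 and 69 counts in the rRNA-depleted xrn-2 RNAi libraries and 16 in the mock library, which is 44.3 and 42.1 per 1000 gene counts after xrn-2 RNAi and 10.3 after mock RNAi. The 2 libraries were 4.30-fold (exact interval 2.49 to 7.90) and 4.09-fold (2.35 to 7.56) above mock, and they share that 1 mock library. In the polyA pair the window held 21 counts after xrn-2 RNAi and 0 after mock RNAi, at least 9.51-fold higher in the ratio with mock set at 3 counts. The gene counts in that ratio were 3548 after xrn-2 RNAi and 4821 after mock RNAi, and xrn-2 is itself the RNAi target. The part of this lower gene count in the ratio was not tested. The share of all genes with a fuller downstream window was not computed for the RNAi or catalytic-dead libraries.

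For xrn-1 the downstream ratio was 43.3 and 36.4 per 1000 in the rRNA-depleted xrn-2 RNAi libraries and 21.98 per 1000 in the mock library. In the polyA pair it was 64.6 per 1000 after xrn-2 RNAi and 38.02 per 1000 after mock RNAi, a ratio of 1.70 (exact interval 1.42 to 2.04). The upstream window of xrn-2 held 8 and 9 counts after xrn-2 RNAi and 0 after mock RNAi in the rRNA-depleted experiment, and 6 after xrn-2 RNAi and 2 after mock RNAi in the polyA pair. The upstream window of xrn-1, empty in the time course, held 18 and 34 counts after xrn-2 RNAi and 12 after mock RNAi without polyA selection. In the ratio to gene counts this was 4.84 and 7.74 per 1000 after xrn-2 RNAi and 5.73 per 1000 after mock RNAi, with ratios to mock of 0.844 (exact interval 0.385 to 1.92) and 1.35 (0.682 to 2.86), which both span 1.

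**Figure D5:**
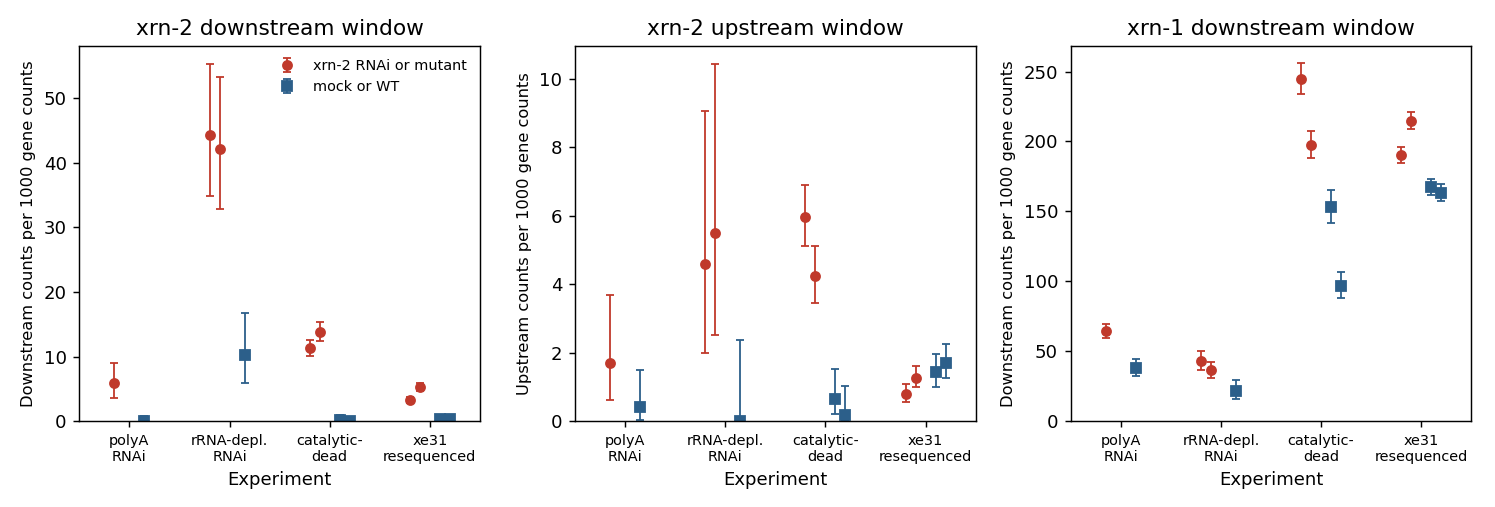
Window counts per 1000 gene counts (y axis) for the downstream and upstream windows of xrn-2 and the downstream window of xrn-1 in 4 experiments (x axis), 1 point per library with exact Poisson 95% intervals as bars; xrn-2 RNAi or mutant libraries are red circles left of mock or WT libraries in blue squares. For xrn-2 downstream each red point lies above the blue points of its experiment, highest without polyA selection at 44.3 and 42.1 per 1000 against 10.3 after mock RNAi.

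The genes whose time-course pattern lay nearest to each transcript were found by the root mean square difference of log2 CPM, after each gene was centred on its own mean, over 22 libraries and 15707 genes. Nearest to xrn-2 were pmk-1, WBGene00007915, fbxa-216, pmk-2 and F25H2.14, with differences between 0.24 and 0.26 where xrn-2 itself varied by 0.48 around its mean. The p38 MAP kinase genes pmk-1 and pmk-2 stood late at 35.6 and 16.4 CPM in xe31, against 16.3 and 6.50 CPM in WT. Nearest to paxt-1 were rae-1, an mRNA export factor, stip-1, set-3, sluh-7, a splicing factor, and Y10G11A.1, with closer differences between 0.070 and 0.082. Nearest to xrn-1 were tag-180, klp-20, a kinesin, Y94H6A.7, lin-59, a histone methyltransferase, and sql-1, with differences between 0.16 and 0.18.

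The protein-coding neighbours in the RefSeq annotation gave the following late values. Beside xrn-2, eat-2, a subunit of an acetylcholine receptor, had 1.13 CPM in xe31 and 1.03 CPM in WT (log2 change 0.15 ± 0.22, edgeR, BH-adjusted p = 0.623), and the gene on the other side is rpl-37A. Beside paxt-1, R05D11.9 did not pass (-0.02 ± 0.04, edgeR, BH-adjusted p = 0.671) and ddx-52, an RNA helicase gene, rose by 0.10 ± 0.03 (edgeR, BH-adjusted p = 0.0175). Beside xrn-1, lem-2, a nuclear envelope protein, rose by 0.22 ± 0.05 (edgeR, BH-adjusted p = 0.00917) and Y39G8C.2 fell (-0.31 ± 0.09, edgeR, BH-adjusted p = 0.0186). The collagen gene col-87 overlaps xrn-1 and had 0.772 CPM in late xe31 and 0.373 CPM in late WT (log2 change 1.23 ± 0.38, edgeR, BH-adjusted p = 0.0230), and 8 noncoding RNA genes overlap xrn-1 as well. For xrn-2 there is 1 overlapping noncoding RNA gene. The use of strand in counting is not stated in the labels or headers, and reads of overlapping genes cannot be told apart. The part of overlapping genes in the xrn-1 and xrn-2 values was not tested.

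Across lists of other RNA decay genes, calls went in both directions. No gene of the decapping list was called higher late in xe31, where 17.3% of all genes were. Of 17 genes listed under decapping and 5' to 3' decay, 8 fell late in xe31 and the other 9 did not pass (median log2 change -0.14, where the median of all genes was -0.03 and 20.8% of all genes fell). The 8 include lsm-8 (-0.42 ± 0.05, edgeR, BH-adjusted p = 0.000102), and a place on the list was not checked for each gene. The decapping activator lsm-1 averaged 21.5 ± 3.43 CPM in xe31 and 32.4 ± 8.79 CPM in WT (SD, n = 5 hours each), and fell by 0.56 ± 0.06 on the log2 scale (edgeR, BH-adjusted p = 4.13e-05). The decapping enzyme cofactor dcap-1 averaged 32.6 ± 3.13 CPM in xe31 and 44.4 ± 6.75 CPM in WT and fell by 0.44 ± 0.05 (edgeR, BH-adjusted p = 7.11e-05). Both were lower in xe31 in 5 of 5 hours.

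Among 11 tested genes of deadenylation, which shortens the polyA tail before decapping, 2 rose and 6 fell late in xe31 (median -0.12), where 17.3% of all genes rose and 20.8% fell. The subunit panl-2 of one deadenylase rose by 0.31 ± 0.04 and ccr-4, a catalytic subunit of another, fell by 0.24 ± 0.07 (edgeR, BH-adjusted p = 0.000191 and 0.0184). The gene panl-3, of the same deadenylase as panl-2, was at -0.18 ± 0.05 (edgeR, BH-adjusted p = 0.0121). Of 7 genes of nonsense-mediated decay 1 rose and 3 fell (median -0.12), with the helicase gene smg-2 up by 0.13 ± 0.05 and smg-5 at -0.31 ± 0.05 (edgeR, BH-adjusted p = 0.0443 and 0.00098). Of 12 genes of the microRNA pathway 1 rose and 5 fell (median -0.10), with nhl-2 up by 0.33 ± 0.05 and pash-1, a partner of the nuclease Drosha, at -0.34 ± 0.05 (edgeR, BH-adjusted p = 0.000425 and 0.000318).

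In the same late contrast 13 of 14 germline markers fell, where 20.8% of all genes did, with a summed level of 2650 to 2820 CPM in xe31 and 2851 to 3990 CPM in WT. Of 8 sperm markers 4 rose (median log2 change 0.16), where 17.3% of all genes did. The part of these markers in the late values was not tested.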

How the data were processed

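The authors deposited read counts as whole numbers per gene, per the file headers, and counts in a downstream and an upstream window, for each library; the build named in the submitters' processing notes is ce10. No label or header names the read aligner, the counter, how strand was used or how long the windows are. Of the polyA RNAi files, 4 gene and 8 window columns belong to samples outside this series and were not used, and the 16 ChIP and input libraries were not analysed here. Symbols matched 42362 of 44200 gene IDs; RefSeq neighbours were taken from assembly WBcel235 by name only.

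Gene counts were tested with edgeR 4.0.16 in R 4.3.3 (quasi-likelihood test, TMM, filterByExpr at a minimum count of 10, Benjamini-Hochberg adjustment over all genes tested, threshold 0.05). In the time course, hour was the block and the strain effect was fitted for early (0 to 2 h), middle (3 to 5 h) and late (6 to 10 h) hours, with 8 residual degrees of freedom; hour was also the block in the catalytic-dead fits. Window ratios were fitted in 1 model over gene and window counts, with each library as a block, for genes with a mean gene count of 10 or more and 20 or more window counts in all. The polyA pair has a log2 ratio with a pseudocount of 1 count. Exact 95% intervals of window counts (Poisson) and of ratios between windows (binomial) came from SciPy 1.17.1. The exact binomial intervals of the polyA log2 ratios came from R. Alternatives used DESeq2 1.42.0, limma 3.58.1, other scalings, filters, hour matching and left-out libraries. The fits were also run on simulated libraries that were independent, with levels flat over the hours apart from the added changes. Such a run cannot check how the fits handle serial hours.

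Named genes were the 3 genes, the 5 nearest patterns of each, their annotated neighbours, and the 2 largest called rises and falls of each decay list, of which examples are given. The genes and lists were chosen with earlier results of these data known.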

Additional observations from a re-analysis of the deposited data

Results flagged for a closer look

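The strain difference of xrn-2 changed over the time course: its log2 change was larger late than early by 0.47, by a test of that contrast itself (edgeR, BH-adjusted p = 0.0111), and the contrast had an adjusted p of 0.0657 without the 2 h libraries. The 9 h WT library stood apart from the other late WT libraries in the downstream ratio of xrn-2, at 0.662 counts per 1000 gene counts, where the others lay between 0.301 and 0.327. That value rests on 4 window counts against 2 in each of the others, and its exact Poisson interval of 0.181 to 1.70 covers them. It was the 1 of 15 sets of late values in which a single library stood apart by this measure, and chance flags about 1 in 20.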

How the results depend on the processing

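Of 267 recomputed values of the 3 genes, 234 were labelled the same as reported. Where a test was run, that label means the same direction and the same side of the threshold. For values with no test it means close to the reported value, within a spread taken from the libraries or from the counting interval. The late xrn-2 and xrn-1 rises and the late xrn-2 downstream rise passed in each alternative run for them. Without hour as a block the log2 changes were 0.56 for early xrn-2, 0.31 for early xrn-1, 0.74 for middle xrn-2, 0.50 for middle xrn-1, 0.13 for late paxt-1 and 0.44 for the xrn-2 late-minus-early contrast, and none of these passed; genes up and down then numbered 8 and 2 early, 55 and 1 in the middle, 1315 and 780 late, and 215 and 71 in the contrast. Against WT 1 hour earlier, with xe31 at 0 h left out, early xrn-2 (0.024) and early xrn-1 (0.29) did not pass, and genes down numbered 416 early, 1595 in the middle and 1800 late. Against WT 1 hour later, with xe31 at 10 h left out, early xrn-1 (0.38) and late paxt-1 (0.018) did not pass, genes up numbered 496 early and 272 in the middle, and genes down 826 and 184.

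Unscaled library totals, an alternative chosen after seeing the data, moved the median of all genes by 0.065 early, 0.086 in the middle, 0.099 late, 0.32 in the catalytic-dead, 0.21 in the mutant-against-mutant and 0.31 in the rRNA-depleted comparison. With them paxt-1 passed early (0.18) and in the middle (0.16), the WT slope of xrn-1 did not pass (-0.017), xrn-2 passed in the catalytic-dead strain (2.31), and the rRNA-depleted changes of xrn-2 and paxt-1 turned to 0.10 and 0.26, with neither value passing in either scaling. Genes down were 83 early against 174 as reported, 398 in the middle against 926, and 1722 late against 3563, with 2656 up in the middle against 1733 and 4395 up late against 2967; in the WT course 5422 rose and 3100 fell against 4388 and 4598, and 6 genes against 11 fell in the mutant-against-mutant contrast. Upper-quartile factors gave 4193 up and 1994 down late, 1522 up and 1526 down in the late-minus-early contrast against 977 and 2274, 18 up and 13 down in the catalytic-dead strain against 120 and 80, and 7 down between the mutants.

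For the catalytic-dead strain DESeq2 passed xrn-2 (1.89) and called 2100 genes up and 1660 down, no filter passed xrn-2 (1.95) with 812 up and 410 down, and the spread shared with the time course passed xrn-2 (2.03), paxt-1 (-0.46) and xrn-1 (0.76) with 6693 up and 5503 down. Between the mutants DESeq2 called 1317 up and 1341 down, and no filter 19 and 44. In the rRNA-depleted libraries DESeq2 called 743 up and 361 down. TMM factors in the polyA pair gave -1.12 for xrn-2, 0.73 for paxt-1 and 0.58 for xrn-1. Over the late hours alone the ratios between genes were 0.86 for xrn-2 to paxt-1, 0.29 for xrn-1 to paxt-1 and 0.57 for xrn-2 to xrn-1, with too few pairs to pass.

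Leaving out 1 hour at a time, early xrn-1 lay between 0.24 and 0.42, the late-minus-early contrast between 0.38 and 0.56 for xrn-2 and between -0.0015 (without 6 h) and 0.058 for paxt-1, and the WT slope of xrn-2 between -0.056 and -0.0076. Genes up and down numbered 578 to 1063 and 33 to 95 early, 715 to 1515 and 136 to 753 in the middle, 440 to 1352 and 1052 to 2843 in the contrast, and 179 to 319 fell in the late downstream ratio. Leaving out 1 rRNA-depleted RNAi library put paxt-1 between -0.063 and -0.0082. The cause of these shifts was not tested. No paired analysis was possible because the RNA groups that carry replicate numbers share at most 1 of them; strains were paired by hour instead. Depth limits the window ratios of xrn-2, which rest on 4 or fewer counts per WT time-course library downstream.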
